A study of Mus musculus with 8 samples.

Results

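The genes described here carry, export, import or store metal ions in TEC71 cells, an immortalized epithelial line from the medulla of the mouse thymus. They were chosen by gene name: the Slc30a and Slc39a zinc carriers, the Slc11a and Slc40a iron carriers, the Slc31a copper carriers, the Slc41a magnesium carriers, the metallothioneins Mt1, Mt2 and Mt3, the ferritin genes Fth1 and Ftl1, the transferrin receptor Tfrc and the copper pumps Atp7a and Atp7b. The set holds 40 of the 22911 genes with a symbol on the array, read by 57 of its 56605 probes. Of the 40, 34 were tested because all arrays of 1 group or more showed them well above background. The other 6 (Slc11a1, Slc30a3, Slc30a8, Slc30a10, Slc39a5 and Slc39a12) were not well above background on any of the 8 arrays and get no fold.

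RNA was hybridized to 8 single-colour Agilent arrays in 3 groups. Clone 1, with 3 arrays, and clone 3, with 2 arrays, are knock-in lines that carry the T1211A mutation in Gtf2i, which encodes the transcription factor TFII-I. The control (3 arrays) was transfected with the Cas9 nickase and a single guide RNA, and no source used here says whether it was a clone or a pool. All groups are TEC71 cells kept in the same serum-containing medium. Each knock-in line is 1 clone, so a difference from the control can belong to the clone as well as to the mutation, and a probe does not read a point mutation. The labels do not say whether arrays of a group came from separate cultures, so p-values measure the spread between these arrays, which may be technical.

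Zinc, iron, copper and magnesium are needed as cofactors and are harmful in excess, so cells balance their entry, exit and storage. Slc39a (ZIP) proteins move zinc into the cytosol and Slc30a (ZnT) proteins move it out of the cell or into organelles. Metallothioneins are small cysteine-rich proteins that bind zinc and copper, and the zinc-sensing factor MTF-1 switches on Mt1, Mt2 and Slc30a1 through metal response elements in their promoters. In mouse cells MTF-1 also holds Slc39a10 down. Iron enters on transferrin through Tfrc, crosses the endosome membrane through Slc11a2 (DMT1), is stored in ferritin and leaves through ferroportin, Slc40a1. Iron regulatory proteins stabilize the Tfrc transcript when iron is low and act on ferritin mainly at translation.

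Stretches around the RefSeq starts of Mt1, Mt2 and Slc30a1, the textbook MTF-1 targets, are shown because all of these genes were measured lower in both clones. Each runs from 250 bases before to 30 bases after the RefSeq start in GRCm38.p6, on the plus strand: Mt1 at chr8:94178839-94179118, Mt2 at chr8:94172368-94172647 and Slc30a1 at chr1:191906531-191906810. Capitals mark the core of the metal response element, TGCACNC or TGCGCNC, on either strand.
Mt1: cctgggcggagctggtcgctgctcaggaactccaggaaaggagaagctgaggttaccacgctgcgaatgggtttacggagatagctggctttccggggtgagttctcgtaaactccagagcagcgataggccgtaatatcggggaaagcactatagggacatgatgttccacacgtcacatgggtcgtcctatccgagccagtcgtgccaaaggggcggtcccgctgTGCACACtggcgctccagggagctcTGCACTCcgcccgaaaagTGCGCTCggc
Mt2: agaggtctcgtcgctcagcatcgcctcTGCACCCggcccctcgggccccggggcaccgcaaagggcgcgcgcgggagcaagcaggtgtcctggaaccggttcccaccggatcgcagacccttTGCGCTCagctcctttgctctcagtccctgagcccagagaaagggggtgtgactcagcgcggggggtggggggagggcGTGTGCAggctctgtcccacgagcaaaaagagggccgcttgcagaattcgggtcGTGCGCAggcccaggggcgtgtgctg
Slc30a1: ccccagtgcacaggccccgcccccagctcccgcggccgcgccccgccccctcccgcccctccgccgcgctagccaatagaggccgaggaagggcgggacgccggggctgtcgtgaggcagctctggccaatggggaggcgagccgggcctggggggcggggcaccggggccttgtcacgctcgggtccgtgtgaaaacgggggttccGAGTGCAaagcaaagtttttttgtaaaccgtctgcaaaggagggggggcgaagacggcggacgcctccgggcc
In windows of 250 bases before to 50 after the start, Mt1 held 3 cores, Mt2 held 4 and Slc30a1 held 2, of which the last, on the opposite strand at bases 31 to 37, lies past the printed end. Such counts were not particular to these genes: Slc30a4, called in neither clone, and Slc30a10, above background on no array, also held 3. Atp7a and Slc30a2, called in neither clone, held 2, as did 1 window of Tfrc. At least 1 core was found in 25.7% of all 32851 windows in the RefSeq table and in 22 of the 41 windows (53.7%) of the metal genes. Of all windows, at least 3 cores were found in 1.97% and at least 4 in 0.517%. These 41 windows belong to 34 of the metal genes, some of which have several starts. Matches on both strands were counted, and matches that overlap were each counted. A match is a description of the letters and was not tested as a binding site. The Mt1 cores at bases 3 to 9 and 21 to 27 and the Mt2 core at bases 5 to 11 lie after the RefSeq start. Whether transcription begins at these starts in TEC71 cells was not examined.

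**Figure D1:**
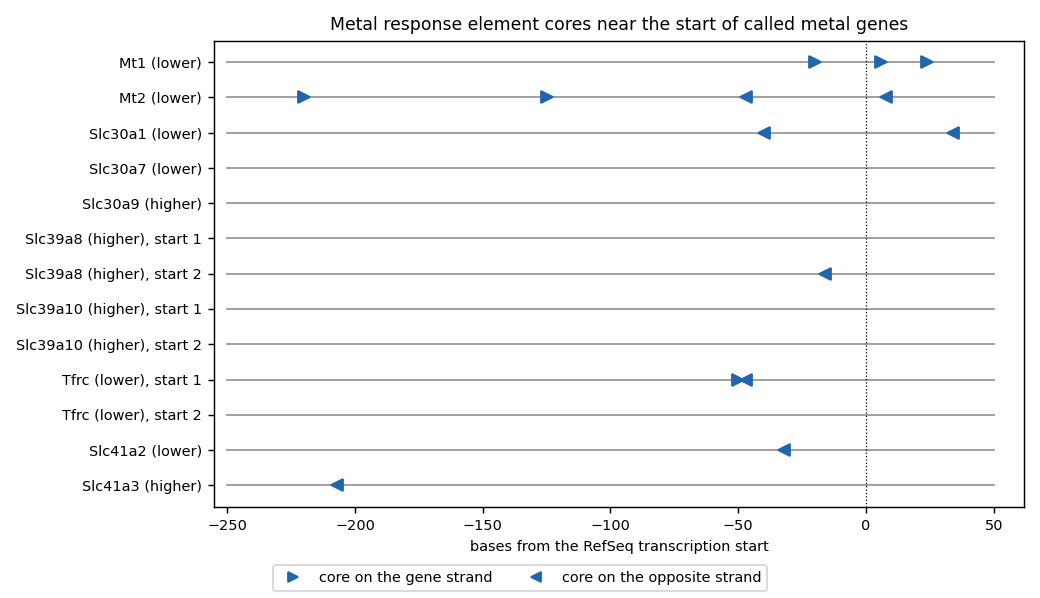
Position of metal response element cores (triangles; direction shows the strand) in bases from the RefSeq transcription start, for the called metal genes that have a window; lower and higher give the direction in both clones against the control. Mt1 and Mt2 hold 3 and 4 cores, while the windows of Slc30a7, Slc30a9 and Slc39a10 hold none.

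Across the 8 arrays the 75th percentile of the processed signal ran between 268 and 377, and no spot was saturated. Within a group arrays correlated at r of 0.993 to 0.995 over the 25353 genes and unnamed transcripts tested. Clone arrays correlated with control arrays at 0.964 to 0.970. Of 13 thymic epithelial markers, 10 were above background on all 8 arrays, among them Krt5, Krt14, Krt8, Krt18, Epcam and Trp63. Aire, which marks mature medullary cells, was above background on 3 arrays, and Psmb11 and Ccl21a were on none. The summed epithelial level, in units of the 75th percentile, ran between 346 and 396 in clone 1, between 364 and 407 in clone 3 and between 390 and 507 in the control. Epcam, Krt5 and Trp63 were lower and Cldn4 was higher in both clones. Of 7 fibroblast markers 4 were on no array. The sum of the 7 lay at 0.452 to 0.614 in clone 1, 0.459 to 0.533 in clone 3 and 0.950 to 1.20 in the control. Of these markers, Pdgfra was lower in both clones (-1.30 and -1.83 log2). Col1a2, the only other marker tested, passed in neither (-0.13 and 0.14 log2). Of 7 haematopoietic markers 4 were above background on all 8 arrays, among them Itgam, while Ptprc, which defines blood cells, was so on 1 array. In RNA of a whole culture, fewer cells of a kind and less RNA per cell cannot be told apart, and the part of these markers in the results below was not tested. Levels below are on a log2 scale on which 0 is the 75th percentile of an array, and they are comparable between arrays for 1 gene but not between genes. The array titles end in a pair of numbers, read here as row and position on the slide. By this reading the 3 control arrays and clone 1 array 1 lie in the first row and the other 4 arrays in the second, so row and group overlap in large part.

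The comparison of each clone with the control asks which of these genes differ in cells that carry the mutation. The metallothionein genes Mt1 and Mt2, the zinc exporter genes Slc30a1 and Slc30a7, the transferrin receptor, Slc11a2 and Slc41a2 were lower in both clones. So were the zinc importer genes Slc39a4 and Slc39a14. The importer genes Slc39a8 and Slc39a10, the exporter gene Slc30a9, ferroportin and Slc41a3 were higher in both clones. In clone 1, 6 of the 34 tested genes passed as higher and 9 as lower (limma, adjusted p under 0.05), and of all 25353 genes and unnamed transcripts tested 14.7% passed as higher and 16.5% as lower. These 15 genes are 44.1% of the 34, beside 31.1% of all tested. In clone 3, 6 passed as higher and 10 as lower, beside 13.3% and 17.0% of all tested. Together these 16 are 47.1% of the 34, beside 30.2% of all tested. In both clones with the same sign 5 passed as higher and 9 as lower, which is 14 of 34 (41.2%), beside 11.3%, 12.2% and 23.5% of all tested. A called change of at least 2-fold in both clones was found for 11 of the 34 (32.4%), beside 7.21% of all tested. Slc40a1 is among them although it was not well above background on 1 control array, so that it was tested only through the clones, where it is high. Without it the counts are 13 and 10 of 33. With normexp, a model-based background correction, 8 of the 34 changed at least 2-fold in both clones, beside 2.91% of all tested. The median log2 difference of the 34 genes was -0.05 in clone 1 and -0.14 in clone 3, against -0.05 and -0.04 over all tested, and the median of the size was 0.33 and 0.41, against 0.28 and 0.31. Both comparisons share the 3 control arrays, so calls in both clones are not independent of each other. The metal genes were chosen with earlier results of these data known, and only 14722 of the 25353 tested have a symbol. The shares are thus a description, and an excess over all tested was not tested.

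**Figure D2:**
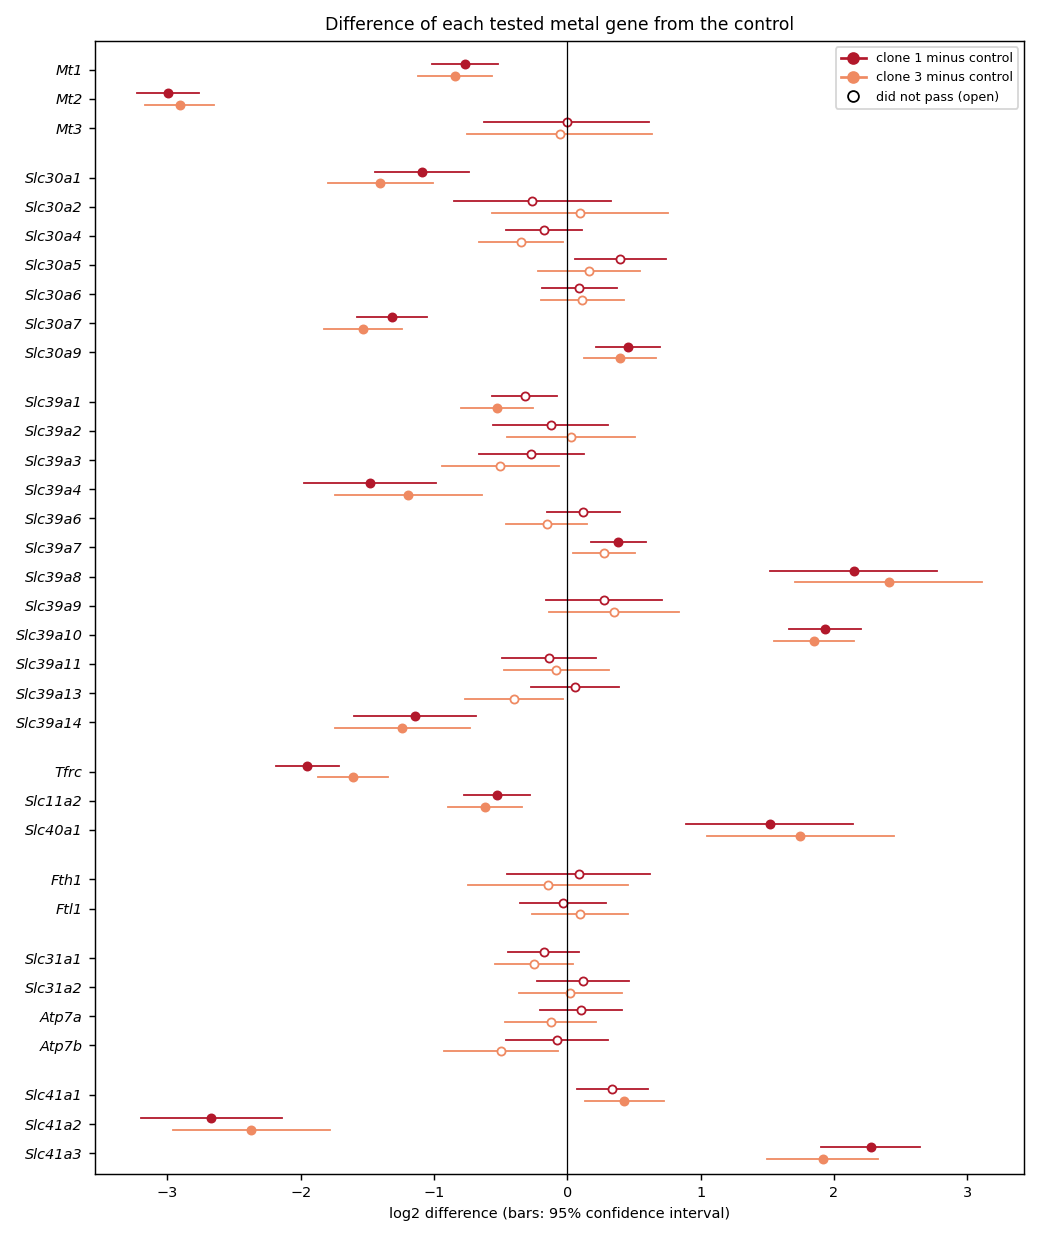
log2 difference from the control (horizontal axis) of the 34 tested metal genes, grouped by role, in clone 1 and clone 3; bars are 95% confidence intervals of the limma fit, filled points passed at adjusted p under 0.05 and open points did not. Mt2, Tfrc and Slc41a2 lie far to the left and Slc39a8, Slc39a10, Slc41a3 and Slc40a1 far to the right in both clones, while no ferritin or copper gene has a filled point.

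Metallothioneins bind zinc and copper in the cytosol, and Mt1 and Mt2 are the forms found in most tissues. Mt2 stood at 2.01, 2.06 and 2.08 in clone 1 and 2.22 and 2.06 in clone 3, against 5.12, 4.96 and 5.07 in the control. Every knock-in array lay below every control array. Mt2 was 7.97-fold lower in clone 1 (-2.99 log2, SE 0.10, adjusted p = 2.97e-07) and 7.50-fold lower in clone 3 (-2.91 log2, SE 0.11, adjusted p = 8.75e-07). Mt1 stood at 5.31, 5.47 and 5.47 in clone 1 and 5.45 and 5.24 in clone 3, against 6.20, 6.24 and 6.11 in the control. Here too the knock-in arrays were all below the control arrays, by a smaller step. The Mt1 difference was -0.77 log2 in clone 1 (1.70-fold, SE 0.11, adjusted p = 0.00101) and -0.84 log2 in clone 3 (1.79-fold, SE 0.12, adjusted p = 0.00135), and a second probe gave -0.97 and -0.94 log2. Mt3, known as the brain form, averaged 1.03 ± 0.39 in the 3 arrays of clone 1 (SD) and 0.97 ± 0.51 in the 2 of clone 3 (SD), against 1.03 ± 0.36 in the 3 of the control (SD). Its groups overlapped, and the 95% interval of the difference ran from -0.63 to 0.62 log2 in clone 1 and from -0.75 to 0.64 log2 in clone 3. Changes inside those limits remain possible.

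**Figure D3:**
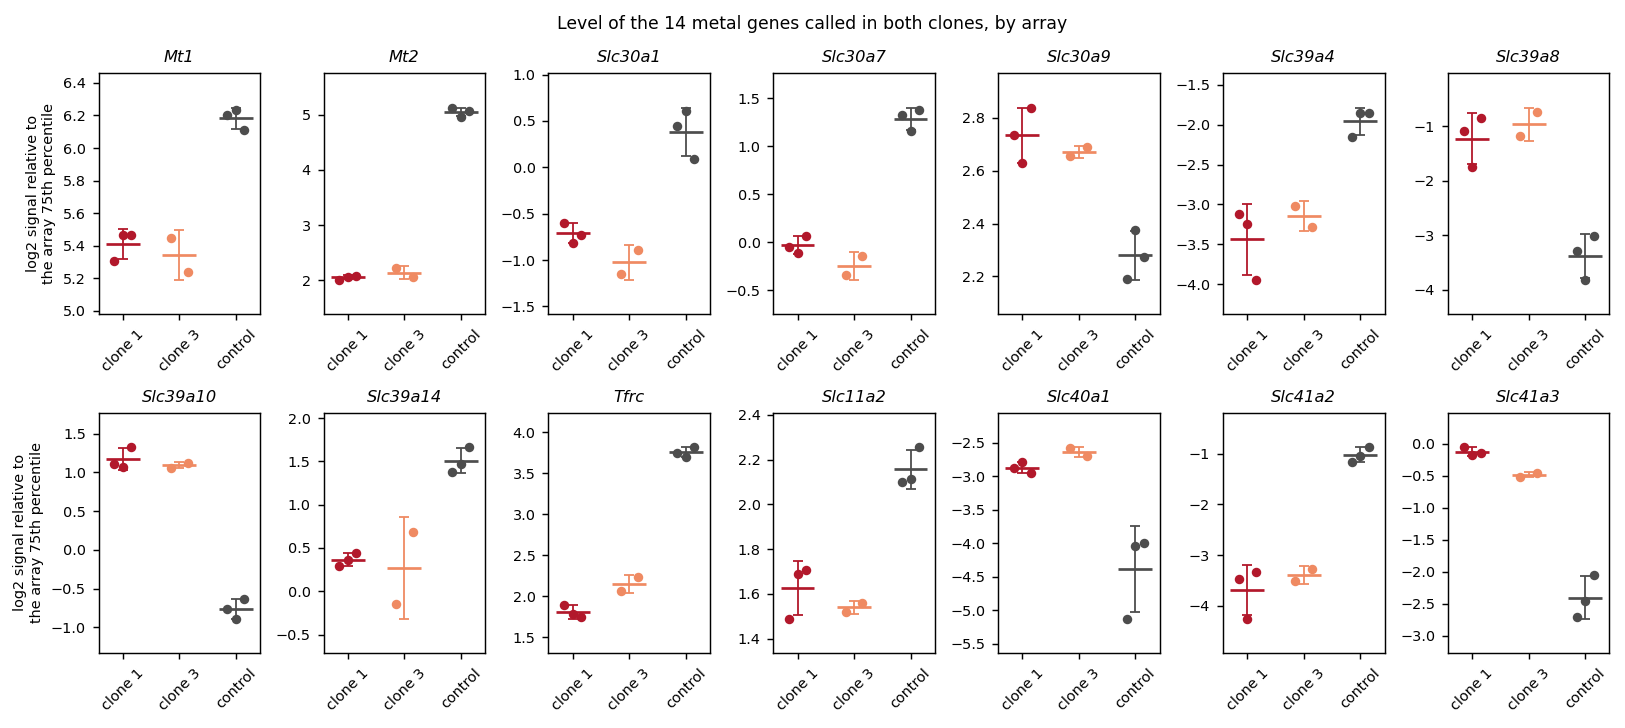
Level of the 14 metal genes that passed in both clones on each of the 8 arrays (points), in log2 units from the array's 75th percentile and with a vertical scale of its own for each gene; clone 1, clone 3 and control run from left to right, horizontal lines are group means and bars are 1 SD. In every panel the knock-in arrays are separate from the control arrays, by over 1 log2 for Mt2, Slc30a7, Slc39a8, Slc39a10, Tfrc, Slc40a1, Slc41a2 and Slc41a3.

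Of the 7 tested zinc exporter genes, 2 were lower and 1 was higher in both clones. Slc30a1, the exporter of the plasma membrane, stood at -0.60, -0.81 and -0.73 in clone 1 and -1.16 and -0.89 in clone 3, against 0.45, 0.60 and 0.09 in the control. No knock-in array reached the lowest control array. The fall was 2.13-fold in clone 1 (-1.09 log2, SE 0.15, adjusted p = 0.000982) and 2.65-fold in clone 3 (-1.40 log2, SE 0.17, adjusted p = 0.000556). Slc30a7, which loads zinc into the Golgi, stood at -0.04, -0.11 and 0.07 in clone 1 and -0.35 and -0.14 in clone 3, against 1.32, 1.16 and 1.38 in the control. The groups were separate by over 1 log2. Its difference was -1.31 log2 in clone 1 (2.49-fold, SE 0.11, adjusted p = 6.5e-05) and -1.53 log2 in clone 3 (2.89-fold, SE 0.13, adjusted p = 6.55e-05). Unlike Mt1, Mt2 and Slc30a1, the Slc30a7 window held no core of the metal response element.

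Slc30a9, a carrier of zinc out of mitochondria, was the exporter gene that passed as higher, and its step was small. It stood at 2.74, 2.63 and 2.84 in clone 1 and 2.66 and 2.69 in clone 3, against 2.19, 2.37 and 2.27 in the control. All knock-in arrays lay above the control arrays. The rise was 0.46 log2 in clone 1 (SE 0.11, adjusted p = 0.0118) and 0.39 log2 in clone 3 (SE 0.12, adjusted p = 0.036), with 0.71 log2 in both clones at the second probe. The call in clone 3 was lost without control array 1, control array 3, clone 1 array 1 or either clone 3 array (adjusted p up to 0.135). With the array row as a block it passed in neither clone (adjusted p = 0.0942 and 0.313). Slc30a5 and Slc30a6, which work together in the early secretory pathway, and the vesicle carriers Slc30a2 and Slc30a4 passed in neither clone. Their differences ran between -0.26 and 0.40 log2 in clone 1 and between -0.35 and 0.16 log2 in clone 3.

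Among the 12 tested zinc importer genes, 2 were higher and 2 were lower in both clones. Slc39a8 (ZIP8) imports zinc and manganese. It stood at -1.09, -1.74 and -0.85 in clone 1 and -1.18 and -0.75 in clone 3, against -3.29, -3.81 and -3.02 in the control. The lowest knock-in array was more than 1 log2 above the highest control array. The rise was 4.43-fold in clone 1 (2.15 log2, SE 0.27, adjusted p = 0.000576) and 5.32-fold in clone 3 (2.41 log2, SE 0.31, adjusted p = 0.00067). With normexp the Slc39a8 values were 1.12 and 1.24 log2, with both calls kept. A second Slc39a8 probe, above background on 3 arrays, gave 0.58 and 0.44 log2. Slc39a10, a zinc importer of the plasma membrane, stood at 1.11, 1.07 and 1.33 in clone 1 and 1.06 and 1.12 in clone 3, against -0.76, -0.89 and -0.63 in the control. The 5 knock-in arrays lay within 0.3 log2 of each other, all far above the control. The rise was 3.82-fold in clone 1 (1.93 log2, SE 0.12, adjusted p = 7.95e-06) and 3.61-fold in clone 3 (1.85 log2, SE 0.13, adjusted p = 2.52e-05), and the second probe gave 1.72 and 1.42 log2.

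Slc39a14 (ZIP14), which carries zinc, manganese and iron not bound to transferrin, moved the other way. Its level was 0.29, 0.36 and 0.44 in clone 1 and -0.15 and 0.68 in clone 3, against 1.38, 1.47 and 1.67 in the control. The clone 3 arrays lay far apart, on either side of the clone 1 arrays, yet both were below the control. The difference was -1.14 log2 in clone 1 (SE 0.20, adjusted p = 0.00296) and -1.24 log2 in clone 3 (SE 0.22, adjusted p = 0.0039). Without clone 3 array 1 the clone 3 value was -0.82 log2 and without clone 3 array 2 it was -1.65 log2, and with the array row as a block it no longer passed (adjusted p = 0.0867). Slc39a4, the importer that takes up dietary zinc and is mutated in acrodermatitis enteropathica in humans, stood at -3.11, -3.25 and -3.94 in clone 1 and -3.02 and -3.28 in clone 3, against -2.16, -1.86 and -1.86 in the control. Its knock-in arrays were all below the control arrays. It fell 2.79-fold in clone 1 (-1.48 log2, SE 0.22, adjusted p = 0.00121) and 2.28-fold in clone 3 (-1.19 log2, SE 0.24, adjusted p = 0.00686). With normexp the Slc39a4 values were -0.74 and -0.58 log2, past the threshold in both clones. The clone 3 call was lost without clone 3 array 2 (-1.06 log2, adjusted p = 0.0537) and with the array row as a block (-0.71 log2, adjusted p = 0.303).

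A pair of importer genes passed in a single clone. Slc39a1, a widely expressed importer of the plasma membrane, stood at 4.45, 4.53 and 4.56 in clone 1 and 4.35 and 4.26 in clone 3, against 4.86, 4.69 and 4.95 in the control. Both clones lay below the control, and the difference was -0.32 log2 in clone 1 (adjusted p = 0.0507) and -0.53 log2 in clone 3 (SE 0.12, adjusted p = 0.011). Slc39a7, which releases zinc from the endoplasmic reticulum, stood at 5.86, 5.85 and 5.83 in clone 1 and 5.75 and 5.73 in clone 3, against 5.48, 5.49 and 5.42 in the control. All its knock-in arrays were above the control arrays, and the difference was 0.38 log2 in clone 1 (SE 0.09, adjusted p = 0.0131) and 0.28 log2 in clone 3 (adjusted p = 0.0725). Neither gene passed in the direct test of clone 3 against clone 1 (adjusted p = 0.558 for Slc39a1 and 0.73 for Slc39a7). With the row as a block neither kept its call (adjusted p = 0.123 for Slc39a1 in clone 3 and 0.0939 for Slc39a7 in clone 1). The Slc39a1 call was also lost without clone 3 array 2 (adjusted p = 0.0655), and both calls were lost without a filter. In the other direction, Slc39a1 also passed in clone 1 with the filter on all 8 arrays, the mean of probes or trend and robust estimation. It did so without control array 2 as well. Slc39a7 also passed in clone 3 with normexp or the mean of probes. A second Slc39a7 probe gave 0.47 log2 in clone 1 and 0.43 log2 in clone 3. The other 6 importer genes, Slc39a2, Slc39a3, Slc39a6, Slc39a9, Slc39a11 and Slc39a13, passed in neither clone, with differences of -0.27 to 0.27 log2 in clone 1 and -0.50 to 0.35 log2 in clone 3.

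Of the iron carriers, the uptake genes were lower and the exporter was higher in both clones. Tfrc, the receptor for transferrin, stood at 1.90, 1.78 and 1.74 in clone 1 and 2.07 and 2.23 in clone 3, against 3.74, 3.71 and 3.82 in the control. The control arrays were over 1 log2 above every knock-in array, and both clone 3 arrays were above the clone 1 arrays. Tfrc was 3.87-fold lower in clone 1 (-1.95 log2, SE 0.10, adjusted p = 3.68e-06) and 3.05-fold lower in clone 3 (-1.61 log2, SE 0.12, adjusted p = 2.73e-05), and its second probe gave -1.80 and -1.77 log2. Slc11a2, which moves iron out of the endosome, stood at 1.49, 1.69 and 1.71 in clone 1 and 1.52 and 1.56 in clone 3, against 2.10, 2.11 and 2.26 in the control. All knock-in arrays were lower at this probe. The difference was -0.53 log2 in clone 1 (1.44-fold, SE 0.11, adjusted p = 0.00626) and -0.62 log2 in clone 3 (1.53-fold, SE 0.12, adjusted p = 0.00568). Its 4 probes did not behave alike: another gave -0.94 and -0.96 log2, and the remaining probes gave -0.04 and 0.02 log2 in clone 1 and -0.19 and -0.20 log2 in clone 3. The Slc11a2 transcript is known in forms with different ends, and which form each probe reads was not examined.

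Slc40a1, the only known iron exporter of mammalian cells, stood at -2.87, -2.78 and -2.95 in clone 1 and -2.58 and -2.69 in clone 3, against -5.13, -4.04 and -3.99 in the control. It was well above background on all knock-in arrays and on 2 of 3 control arrays, and control array 1, the lowest, was not. All knock-in arrays lay more than 1 log2 above the highest control array. The fitted difference, which includes that array, was 1.52 log2 in clone 1 (2.86-fold, SE 0.27, adjusted p = 0.00357) and 1.75 log2 in clone 3 (3.36-fold, SE 0.31, adjusted p = 0.00351). Without control array 1 the fit gave 1.15 log2 for clone 1 and 1.38 log2 for clone 3. Normexp gave 0.41 log2 for clone 1 and 0.56 log2 for clone 3 (adjusted p = 0.0175 and 0.00626), so the size of the Slc40a1 change is uncertain. With the array row as a block the clone 3 call was lost (adjusted p = 0.105).

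Ferritin transcripts encode the heavy (Fth1) and light (Ftl1) subunits of the shell that stores iron, and neither passed in either clone. Fth1 stood at 6.45, 7.15 and 6.70 in clone 1 and 6.51 and 6.57 in clone 3, against 7.14, 6.33 and 6.59 in the control. The groups overlapped, and the 95% interval ran from -0.45 to 0.62 log2 in clone 1 and from -0.75 to 0.45 log2 in clone 3. Ftl1 stood at 7.24, 7.24 and 7.36 in clone 1 and 7.33 and 7.48 in clone 3, against 7.59, 7.23 and 7.11 in the control. Its groups overlapped as well, with intervals of -0.36 to 0.29 log2 in clone 1 and -0.27 to 0.45 log2 in clone 3. A second Ftl1 probe lay between 5.65 and 5.81 in clone 1 and between 5.43 and 5.63 in clone 3, against 4.55 to 5.30 in the control, a difference in means of 0.71 and 0.48 log2. Ferritin genes have many near-identical pseudogenes, so which transcripts each probe reads is uncertain.

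None of the 4 copper carriers passed in either clone. Slc31a1 (CTR1), which brings copper into the cell, averaged 2.81 ± 0.03 in the 3 arrays of clone 1 (SD) and 2.73 ± 0.20 in the 2 of clone 3 (SD), against 2.98 ± 0.11 in the 3 of the control (SD). Both clones lay below the control arrays, but the differences of -0.18 and -0.25 log2 did not pass in limma (adjusted p = 0.291 and 0.183). Slc31a2, a relative found on inner membranes, gave 0.12 log2 in clone 1 and 0.02 log2 in clone 3. The copper pump genes Atp7a (0.10 and -0.13 log2) and Atp7b (-0.07 and -0.50 log2) did not pass either, with 95% intervals of -0.20 to 0.41 and -0.47 to 0.22 log2 for Atp7a and -0.46 to 0.31 and -0.93 to -0.07 log2 for Atp7b. The last interval is not adjusted for the number of genes tested, and the adjusted p was 0.078. With trend and robust estimation Atp7b passed as lower in clone 3. A second Atp7a probe gave 0.11 log2 in clone 1 and -0.51 log2 in clone 3. At that probe the clone 3 arrays lay between -0.90 and -0.68, below the control arrays at -0.36 to -0.17.

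The Slc41a genes, whose products move magnesium, gave large differences in opposite directions. Slc41a2, a carrier of the plasma membrane, stood at -3.47, -4.26 and -3.34 in clone 1 and -3.51 and -3.26 in clone 3, against -1.15, -1.04 and -0.86 in the control. The highest knock-in array was over 2 log2 below the lowest control array. Slc41a2 was 6.37-fold lower in clone 1 (-2.67 log2, SE 0.23, adjusted p = 6.25e-05) and 5.17-fold lower in clone 3 (-2.37 log2, SE 0.26, adjusted p = 0.000291). With normexp its values were -1.34 and -1.20 log2. Slc41a3, described as a magnesium carrier of mitochondria, stood at -0.05, -0.18 and -0.15 in clone 1 and -0.52 and -0.46 in clone 3, against -2.70, -2.46 and -2.05 in the control. Every knock-in array was more than 1 log2 above every control array, with clone 3 below clone 1. The rise was 4.84-fold in clone 1 (2.27 log2, SE 0.16, adjusted p = 2.12e-05) and 3.78-fold in clone 3 (1.92 log2, SE 0.18, adjusted p = 0.000134). Normexp gave 1.43 log2 for clone 1 and 1.16 log2 for clone 3. Slc41a1, which exchanges magnesium for sodium, stood at 0.79, 0.75 and 0.92 in clone 1 and 0.81 and 1.01 in clone 3, against 0.37, 0.44 and 0.63 in the control. Its knock-in arrays were all above the control arrays, and the difference was 0.34 log2 in clone 1 (adjusted p = 0.0595) and 0.43 log2 in clone 3 (SE 0.13, adjusted p = 0.0381). The Slc41a1 call in clone 3 was lost in 6 of the 8 fits without 1 array (all but those without control array 3 or clone 1 array 3; adjusted p up to 0.207) and with the array row as a block (adjusted p = 0.369).

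In the direct comparison of clone 3 with clone 1, none of the 34 genes passed in limma, also with a variance trend and robust estimation, beside 0.0749% of all tested. At an unadjusted p under 0.05 there were 2, Tfrc (0.34 log2, 95% interval 0.08 to 0.61, adjusted p = 0.365) and Slc39a13 (-0.46 log2, 95% interval -0.83 to -0.09, adjusted p = 0.381). The differences ran between -0.46 and 0.36 log2 over the 34 genes. With 3 and 2 arrays, small differences between the clones may have been missed.

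The results were also fitted with the slide row as a term, because all control arrays lie in the first row with a single knock-in array. With this block, all 14 genes called in both clones kept their sign in both, and 10 kept both calls: Mt1, Mt2, Slc30a1, Slc30a7, Slc39a8, Slc39a10, Tfrc, Slc11a2, Slc41a2 and Slc41a3. Of all tested, 17.2% then passed in clone 1 and 8.16% in clone 3. Because the controls lie in the first row only, these blocked values rest on clone 1 array 1, the single knock-in array in that row. Set against the 3 controls alone, that array gave the same clone 1 values as the block, so this is not a further check. Its sign for the 14 genes was also fixed, because all their knock-in arrays lay on the same side of the control arrays. The brightest spike-in signal of clone 1 array 1 was 3238, where the other arrays had 18804 to 34228.

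**Figure D4:**
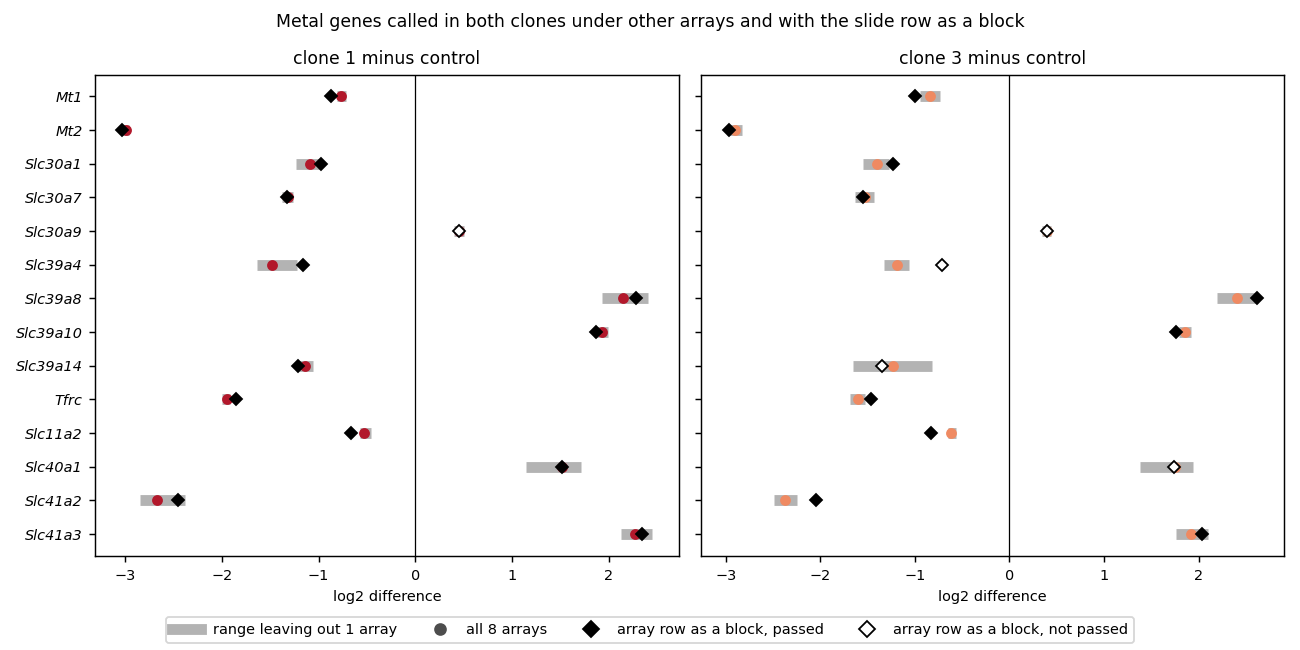
log2 difference from the control of the 14 genes called in both clones, in clone 1 (left) and clone 3 (right); circles use all 8 arrays, grey bars span the fits without 1 array, and diamonds have the array row as a block, filled where adjusted p was under 0.05. No symbol or bar crosses 0, and the open diamonds are Slc30a9 in both panels and Slc39a4, Slc39a14 and Slc40a1 in clone 3.

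Other genes that handle iron were counted from a list of 32, of which 23 were tested. In each clone 6 were higher and 6 were lower, the same 12 in both, beside 23.5% of all tested in both directions. Their median log2 difference was -0.05 in clone 1 and -0.13 in clone 3. Cp, which encodes the ferroxidase ceruloplasmin that works beside ferroportin, averaged -1.62 ± 0.17 in the 3 arrays of clone 1 (SD) and -1.96 ± 0.11 in the 2 of clone 3 (SD), against 1.22 ± 0.07 in the 3 of the control (SD). Its difference was -2.84 log2 with SE 0.12 in clone 1 (adjusted p = 9.61e-07) and -3.18 log2 with SE 0.13 in clone 3 (adjusted p = 1.31e-06). The heme exporter gene Abcg2 (-1.57 and -0.71 log2) and the mitochondrial iron carrier Slc25a28 (-0.81 and -0.66 log2) were also lower in clone 1 and clone 3. Ncoa4, which takes ferritin to the lysosome (1.18 and 0.93 log2), Slc46a1, a carrier of folate and heme (1.33 and 0.93 log2), Hmox2, a heme oxygenase (0.83 and 0.88 log2), and Lcn2, which binds siderophores (0.73 and 0.89 log2), were higher. Slc25a37, the other mitochondrial iron carrier of the list, was also higher (0.79 and 0.55 log2) and is named after its values were seen. Named in the same way, Fbxl5 (-0.36 and -0.49 log2) and Flvcr1 (-0.47 and -0.72 log2) were lower in both clones, and Hmox1 (0.59 and 0.33 log2) was higher. Of the 12, 3 kept both calls with the array row as a block (Cp, Slc46a1 and Hmox2), and all 12 kept their sign. These blocked values too rest on clone 1 array 1, so the kept signs are not a further check. The iron regulatory protein genes Aco1 (-0.25 and 0.05 log2) and Ireb2 (0.27 and 0.30 log2) passed in neither clone; they are named after their values were seen.

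Other copper, zinc, manganese and magnesium genes were counted in the same way, beside the 23.5% of all tested that passed in both clones. Of 9 tested copper genes, 1 (11.1%) passed in both: Sco1, which delivers copper to cytochrome oxidase, at -0.45 and -0.52 log2. Of 18 tested zinc, manganese and magnesium genes, 1 was higher and 3 were lower in both clones (22.2% together), a share near that of all tested. The higher gene was Cnnm2, which acts in magnesium transport (0.80 and 0.69 log2). The lower genes were its relative Cnnm4 (-0.63 and -0.67 log2), the calcium and manganese pump gene Atp2c2 (-0.40 and -0.62 log2) and Mtf2 (-0.69 and -0.52 log2), a chromatin protein of the Polycomb group despite its name as a metal response factor. With the array row as a block, none of these 5 genes kept both calls, and all kept their sign, which again rests on clone 1 array 1. Mtf1, the zinc sensor, is named after its values were seen: it differed by -0.21 log2 in clone 1 (adjusted p = 0.165) and -0.09 log2 in clone 3 (adjusted p = 0.619).

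**Figure D5:**
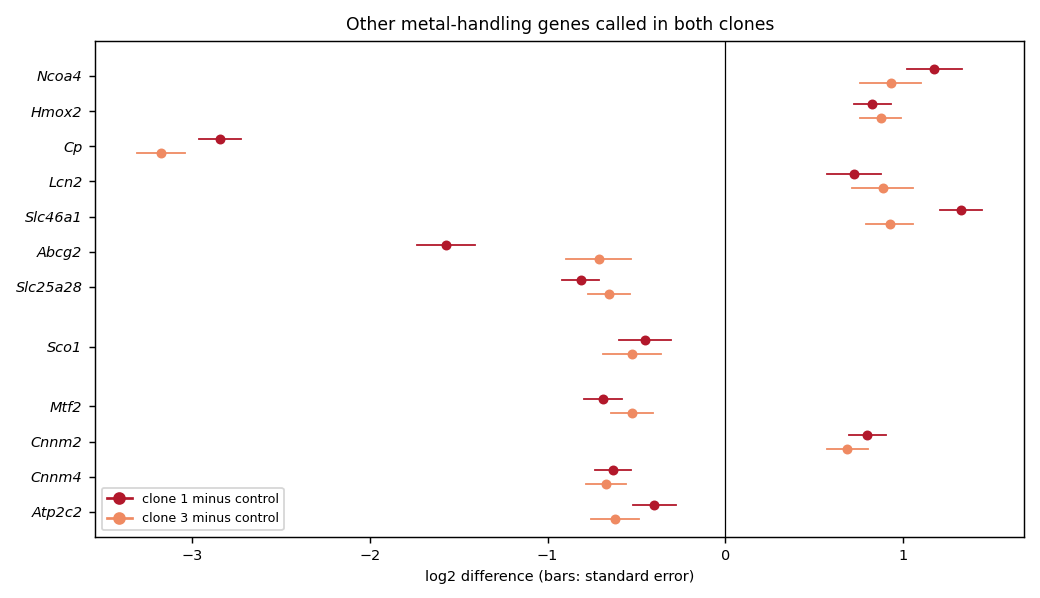
log2 difference from the control (horizontal axis) in clone 1 and clone 3 of 12 genes of the other metal-handling lists, without those named after their values were seen. Bars are standard errors of the limma fit. Cp lies lowest, at -2.84 and -3.18 log2, and Slc46a1 and Ncoa4 lie highest.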

How the data were processed

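The deposited files hold one array each: per the file headers, the gProcessedSignal column is a background-subtracted fluorescence intensity per spot on a linear scale, which the authors made with version 11.5.11 of Agilent Feature Extraction, as the submitters' processing notes say. Flagged outlier spots (114 to 242 per array) were left out. Intensities were converted to log2, spots of a probe averaged, and the 75th percentile of the array subtracted. Probes were named through their transcript accession in the RefSeq table of GRCm38.p6 (32994 of 56605). The brightest probe stood for a gene. A gene was tested if no array of some group had its probe at background, which left 25353, of which 14722 were named.

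The groups were compared with limma 3.58.1 (R 4.3.3; lmFit, contrasts.fit, then eBayes) in a single fit, two-sided at a threshold of 0.05, with p-values adjusted by Benjamini-Hochberg over the whole table; clone 3, with 2 arrays, thus shares the error estimate of all groups. The fit was checked on simulated data. The metal genes and the other lists were chosen with earlier results of these data known. The level on each array is given for genes called in at least 1 contrast, and for Fth1 and Ftl1. From the other lists, up to 8 genes called in both clones with the largest smaller change were named, with 1 selected gene not reported here. Alternatives were normexp (offset 50), scaling by quantiles or the median, testing with no filter or only what all 8 arrays showed above background, averaging probes, trend and robust estimation, the array row, pooled clones and each array left out. The number of arrays limits the precision.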

Additional observations from a re-analysis of the deposited data

How the results depend on the processing

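The counts of called metal genes stayed within 1.5 times of the values in the text under normexp, quantile and median scaling, the mean of all probes, no filter, a filter on all 8 arrays and a variance trend with robust estimation. With the array row as a block, 3 genes in place of 6 were higher in clone 3, and 3 in place of 5 were higher in both clones. In the first row alone, where clone 1 has 1 array and the spread comes from the controls, 3 in place of 6 were higher in clone 1, and 10 of the 15 clone 1 calls were kept; Slc30a1, Slc30a9, Slc39a7, Slc11a2 and Slc40a1 missed the threshold. Leaving out each array in turn gave 6 higher and 9 to 10 lower genes in clone 1, 4 to 6 higher and 8 to 11 lower genes in clone 3, 4 to 5 higher and 8 to 10 lower genes in both, and 0 between the clones. The 5 knock-in arrays as a single group gave 7 higher and 10 lower genes. The sizes of the called differences moved by over 1.5 times with normexp for the dim genes Slc39a4, Slc39a8, Slc40a1, Slc41a2 and Slc41a3, as given in the text, with their calls kept. No call reversed under any of these settings. Of 31 calls, 23 were kept with the row as a block, 26 without a filter, 30 with normexp, median scaling or the mean of probes, and 31 with quantile scaling or the variance trend. The filter on all 8 arrays kept 29 of 29 and left Slc40a1 untested. The fits without 1 array kept 235 of 248. Some uncalled genes passed under other settings. With the variance trend these were Slc30a5, Slc39a1 and Slc41a1 in clone 1, and Slc30a4, Slc39a3, Slc39a13 and Atp7b in clone 3. Slc39a1 also passed in clone 1 with the filter on all 8 arrays, the mean of probes or without control array 2. Normexp added Slc41a1 in clone 1. Slc39a7 passed in clone 3 with normexp or the mean of probes, and Slc39a3 did so without control array 1. Slc30a2, called in neither clone, passed as lower with the row as a block in both (adjusted p = 0.009 and 0.047). There the value rests on clone 1 array 1, at -4.26 where the other arrays lie between -3.41 and -3.12. The cause of these shifts was not tested. No paired analysis was possible because replicate numbers only name arrays in their order of deposit. Genes below background on all arrays are limited by their signal, and with 3 and 2 arrays small differences were not detectable.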
